A study of Mus musculus with 29 samples.

Results

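TRAV1 and TRAJ33 are the variable and joining segments of the T cell receptor alpha chain (TRA) that together encode the invariant chain of mucosal-associated invariant T (MAIT) cells. They were examined in metastases of a mouse melanoma model with mutated Braf, in ovary and brain. Members were taken from a repertoire table by name: alpha chain combinations of V segment, J segment and complete CDR3 amino acid sequence (clonotypes) whose V segment was named V1, or whose J segment was named J33. There were 668 such clonotypes among 21959 of the alpha chain, and 49519 combinations of alpha and beta chains in all. TRAV1 was carried by 57 clonotypes and TRAJ33 by 617. The 6 clonotypes that carried both are counted under each, so 51 joined TRAV1 to another J segment and 611 joined TRAJ33 to another V segment.

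The 29 samples were 10 from ovary and 19 from brain metastases, under 5 treatments. These were anti-PD-L1 as a lead-in and then trametinib together with anti-PD-L1 (lead-in combination, day 3), trametinib with anti-PD-L1 (concurrent combination, day 3), trametinib (day 3), the anti-PD-L1 lead-in (lead-in alone, day 0) and untreated (day 0, called vehicle in the titles). Anti-PD-L1 blocks a brake on T cells, the binding of PD-L1 to its receptor PD-1. Trametinib blocks MEK, a kinase downstream of Braf. The series title asks what a lead-in of anti-PD-L1 adds to its combination with a MAPK inhibitor. The labels give no strain, age or cell line. Each title carries a number and, for all but 1 sample, part 1 or part 2 of it. The brain had 2 numbers per treatment and the ovary 1, and numbers 12, 1, 13, 10 and 3 were sampled in both organs. The labels say neither if each number stands for 1 animal nor how parts arose, so the p-values below cover only how numbers vary, which may be technical.

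MAIT cells are innate-like T cells that recognise microbial vitamin B metabolites presented by the non-polymorphic molecule MR1. Their alpha chain joins TRAV1 to TRAJ33 with a CDR3 of nearly constant length, and the TRAJ33 end of that CDR3 holds a tyrosine that contacts the ligand. They are found in mucosal tissue, liver and blood, and are rare in laboratory mice. Both segments also occur in conventional alpha chains, TRAV1 with other J segments and TRAJ33 with other V segments. The table holds receptor chains only, so no other gene of MAIT cells could be examined, and the chain sequence alone does not show that a cell was a MAIT cell.

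Alpha chain totals ran from 14088 to 51549 counts in ovary samples, with a median of 24750, and from 230 to 9389 in brain samples, with a median of 1292. A count of 0 therefore allowed a share of up to 0.00582% to 0.0213% in an ovary sample and 0.0320% to 1.30% in a brain sample, taking 3 counts of the total as the limit. Intervals given below are exact Clopper-Pearson 95% intervals and, like these limits, cover counting error only. Shares are percentages of TRA counts. In such bulk samples, fewer cells carrying a chain and less receptor RNA per cell cannot be told apart.

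The CDR3 sequences of the 6 TRAV1-TRAJ33 clonotypes follow, to show at which positions they varied. All were chosen by the same V and J names, which bear on how alike they are. Each is given from its first cysteine to its last residue, and all 6 had 12 residues.
TRAV1-TRAJ33 leading CDR3: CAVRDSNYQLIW
TRAV1-TRAJ33 variant R4L: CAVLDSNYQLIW
TRAV1-TRAJ33 variant R4S: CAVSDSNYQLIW
TRAV1-TRAJ33 variant R4M: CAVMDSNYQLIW
TRAV1-TRAJ33 variant V3A, R4M: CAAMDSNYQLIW
TRAV1-TRAJ33 variant S6Y, N7Y: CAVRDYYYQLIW
The substitutions are read against the leading sequence, with positions counted from 1 at the first cysteine. The 4 ovary variants changed only positions 3 and 4, next to the V-J junction, and kept the end DSNYQLIW. The brain clonotype, with 3 counts, was the one that changed the TRAJ33 end.

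The invariant chain was measured in 8 of 10 ovary samples and in 1 of 19 brain samples. In the ovary it had 0 and 0 counts in the lead-in combination, 16 and 3 in the concurrent combination, 23 and 26 in trametinib, 5 and 11 in the lead-in alone, and 1 and 9 in untreated samples. The 94 ovary counts were 0.0354% of TRA counts (interval 0.0286% to 0.0433%). In the brain, part 1 of number 11, under the lead-in alone, had 3 counts of 6782, or 0.0442% (interval 0.00912% to 0.129%), and the other 18 samples had none. In both organs the chain was thus a minor part of the repertoire.

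Among ovary samples the share was highest in trametinib, with 0.163% (interval 0.104% to 0.245%) and 0.180% (interval 0.118% to 0.264%) in the 2 parts of number 13. The other ovary samples with counts lay between 0.00267% and 0.0614%, and the highest upper bound among them was 0.0997%. Number 12, under the lead-in combination, had 0 of 51110 counts, which allows a share of up to 0.00587%. Each ovary treatment had 1 number, so treatment and number cannot be told apart, and no test was made.

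**Figure D1:**
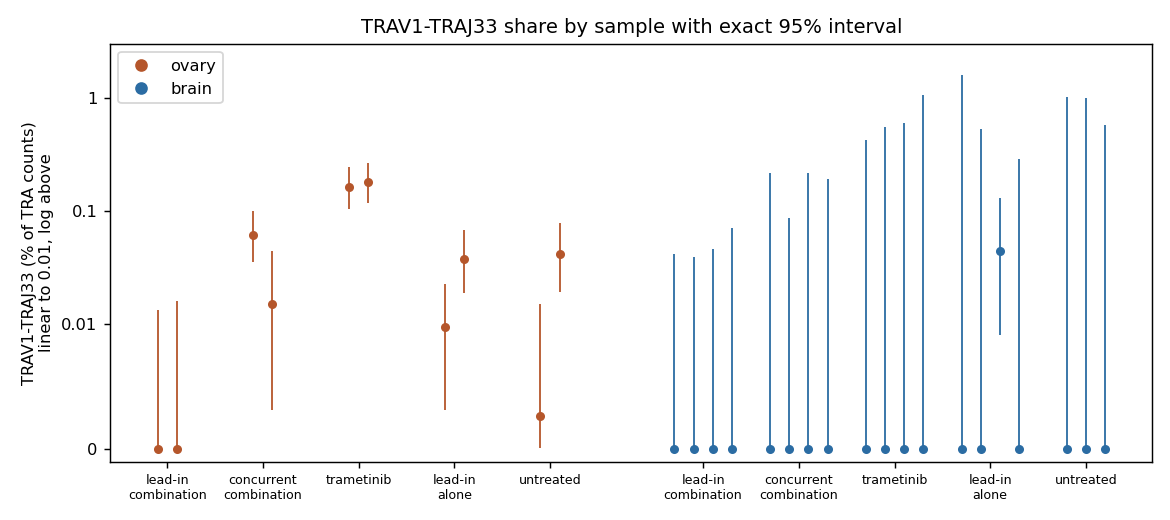
Share of TRAV1-TRAJ33 among TRA counts in each sample (points, percent, axis linear up to 0.01 and logarithmic above) with exact Clopper-Pearson 95% intervals (lines), for ovary samples at left and brain samples at right by treatment. Ovary samples of trametinib are highest at 0.163% and 0.180%, and the intervals of most brain samples at 0 reach beyond the ovary values of other treatments.

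Over the 5 numbers sampled in both organs the invariant chain had 94 of 265792 counts in the ovary and 0 of 27444 in the brain. There 3 counts (0.0109%) set the limit, and the pooled ovary share was 3.24 times that limit. This ratio takes the ovary share without its interval, the numbers as alike and the counts as independent, so it is no firm lower bound. The ratio was 1.34 without number 12, which held most of those brain counts and had no invariant chain in either organ, and 1.64 without number 13. At each number's own ovary share, 5.40 counts would have fallen in the brain samples, 2.63 of them in number 13 and 2.47 in number 1. Within each number the brain limit, between 0.0164% in number 12 and 0.409% in number 3, lay above that number's ovary share, so no difference was detectable in any single number at this depth. In the fit across 886 V-J pairs with edgeR's quasi-likelihood test the pair had an adjusted p of 0.730. With no brain count, the pair passed the filter of at least 10 counts in at least 2 libraries only through the ovary. Its test is therefore not independent of the organ where it was higher. That fit called 0 of 886 pairs (0%) at an adjusted threshold of 0.05, with 47 at an unadjusted p under it, and DESeq2 called 2.

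One sequence carried most of the invariant chain. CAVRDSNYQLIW had 67 of the 94 ovary counts and occurred in 7 ovary samples of 4 numbers, which were numbers 1, 13, 10 and 3. It had 16 and 3 counts in number 1, 8 and 19 in number 13, 0 and 11 in number 10, and 1 and 9 in number 3. This is a CDR3 known from MAIT cells, and it stood with no other V segment in the table. The 4 other ovary forms each stood under other V names too: the R4S form with 14 counts, the V3A, R4M form with 21 under 5 V names, the R4M form with 2 and the R4L form with 1. For these forms the CDR3 alone therefore does not mark the chain. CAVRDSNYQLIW with TRAV1 was 1 of 50 TRA clonotypes seen in at least 4 ovary numbers, and 1 of the 6 among those with no brain count. Of all TRA clonotypes, 131 (0.597%) were in 4 or more numbers.

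The remaining invariant clonotypes were each found in a single sample. The R4L form had 15 counts in part 1 of number 13, the R4M form 5 counts and the V3A, R4M form 2 counts in part 2 of number 13, and the R4S form 5 counts in part 1 of number 10. Number 13 thus held 4 of the 5 ovary forms, and both of its parts held the leading one.

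TRAV1 and TRAJ33 met more often in the ovary than their separate shares would give. If V and J were joined independently within each sample, 7.65 counts of the pair would be expected there, and 94 were observed, a ratio of 12.3. The ratio was 39.6 in number 13, 9.48 in number 10, 8.26 in number 1 and 5.35 in number 3. Number 12 had no count, where 0.354 was expected. Counted as clonotypes, which removes the weight of large clones, the ovary had 5 against an expected 1.04. The brain had 3 counts against an expected 1.39, and 1 clonotype against 0.588. No test was made of these ratios, and the counts within a clone are not independent.

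**Figure D2:**
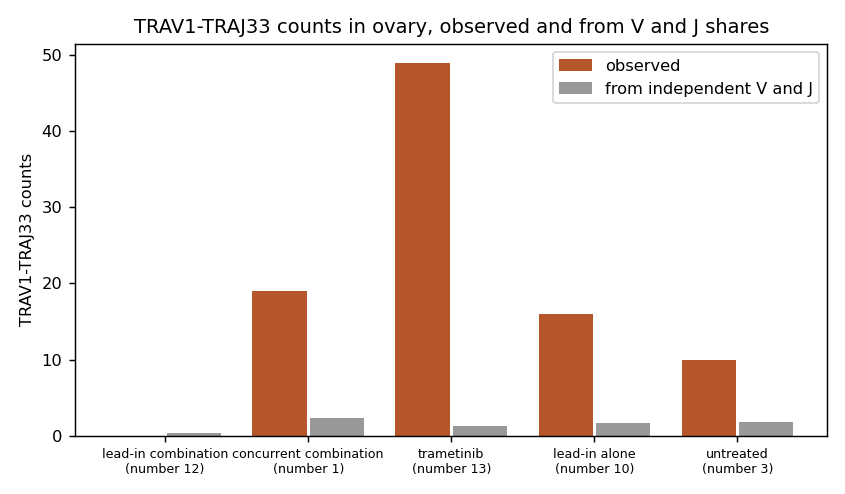
Counts of TRAV1-TRAJ33 in the ovary samples of each number (parts combined), observed and calculated from the TRAV1 and TRAJ33 shares if V and J were joined independently. Number 13 had 49 observed counts against 1.24 calculated, and number 12 had none against 0.354.

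The pair made up 28.3% of TRAV1 counts and 1.44% of TRAJ33 counts in the ovary, against 5.08% and 0.246% in the brain. Among 86 V names with at least 50 ovary counts, TRAV1 had the second highest share of its counts with TRAJ33, after TRAV9N-3 with 32.7%, where the median was 1.81%. By clonotypes it ranked first, with 13.5% against a median of 2.55%. In the brain TRAV1 ranked 11 of 75 V names by counts. The minimum of 50 counts was set after the table had been seen.

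For scale, the other invariant alpha chain of mice, TRAV11 of any copy joined to TRAJ18, which is the chain of invariant natural killer T cells, had 7605 counts in the ovary (2.86%) and 716 in the brain (1.33%). It was present in 10 of 10 ovary and 19 of 19 brain samples. That chain had 88 clonotypes in the ovary and 16 in the brain under this definition, which did not require a CDR3 sequence.

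TRAV1 as a whole was a middling V segment. It was carried by 0.125% of summed ovary TRA counts, rank 69 of 141 V names, and by 0.109% of summed brain TRA counts, rank 74 of 130. In the RefSeq table of the mouse assembly GRCm38.p6, Trav1 is the first of 130 Trav segments along chromosome 14, the one farthest from the J segments. Its closest neighbours in the order of means over numbers were TRAV14-3V14D-2 (0.157% ± 0.0743, SD, n = 5) and TRAV12-1V12N-1 (0.153% ± 0.191) in the ovary, beside 0.155% ± 0.109 for TRAV1. In the brain they were TRAV7D-6V7N-6 (0.110% ± 0.148, n = 10) and TRAV8D-2 (0.0991% ± 0.192), beside 0.103% ± 0.0968 for TRAV1. These differences were far smaller than the spread between numbers. The neighbours were picked as nearest in this order, so that is no separate result.

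TRAV1 was found in all 10 ovary samples, with 1 to 70 counts. Its counts were 16 and 1 in the lead-in combination, 70 and 20 in the concurrent combination, 24 and 65 in trametinib, 25 and 29 in the lead-in alone, and 13 and 69 in untreated samples. Mean shares were 0.0311% ± 0.0379, 0.185% ± 0.119, 0.310% ± 0.198, 0.0736% ± 0.0355 and 0.176% ± 0.1998 in that order of treatments (SD over the 2 parts of 1 number). The parts of a number differed by as much as the treatments did, as in untreated samples with 0.0347% and 0.317%.

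In the brain TRAV1 was found in 11 of 19 samples, with 0 to 19 counts. All 4 samples of the lead-in combination held it (2, 13, 5 and 8 counts), as did all 4 of the concurrent combination (3, 1, 1 and 2). It had 0, 3, 0 and 2 counts in trametinib and 0, 0, 19 and 0 in the lead-in alone, and none in the 3 untreated samples. Mean shares were 0.0943% ± 0.0625, 0.0908% ± 0.0662, 0.258% ± 0.302 and 0.0700% ± 0.140 in the same order. The SD here is over 4 samples, the parts of 2 numbers, and not over 4 replicates. The 2 trametinib samples above 0 had totals of 667 and 344 counts, so 1 count was worth more there than in any sample of the combinations. Untreated brain samples held 1368 TRA counts together, which allows a TRAV1 share of up to 0.219%, above the mean of both combinations.

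**Figure D3:**
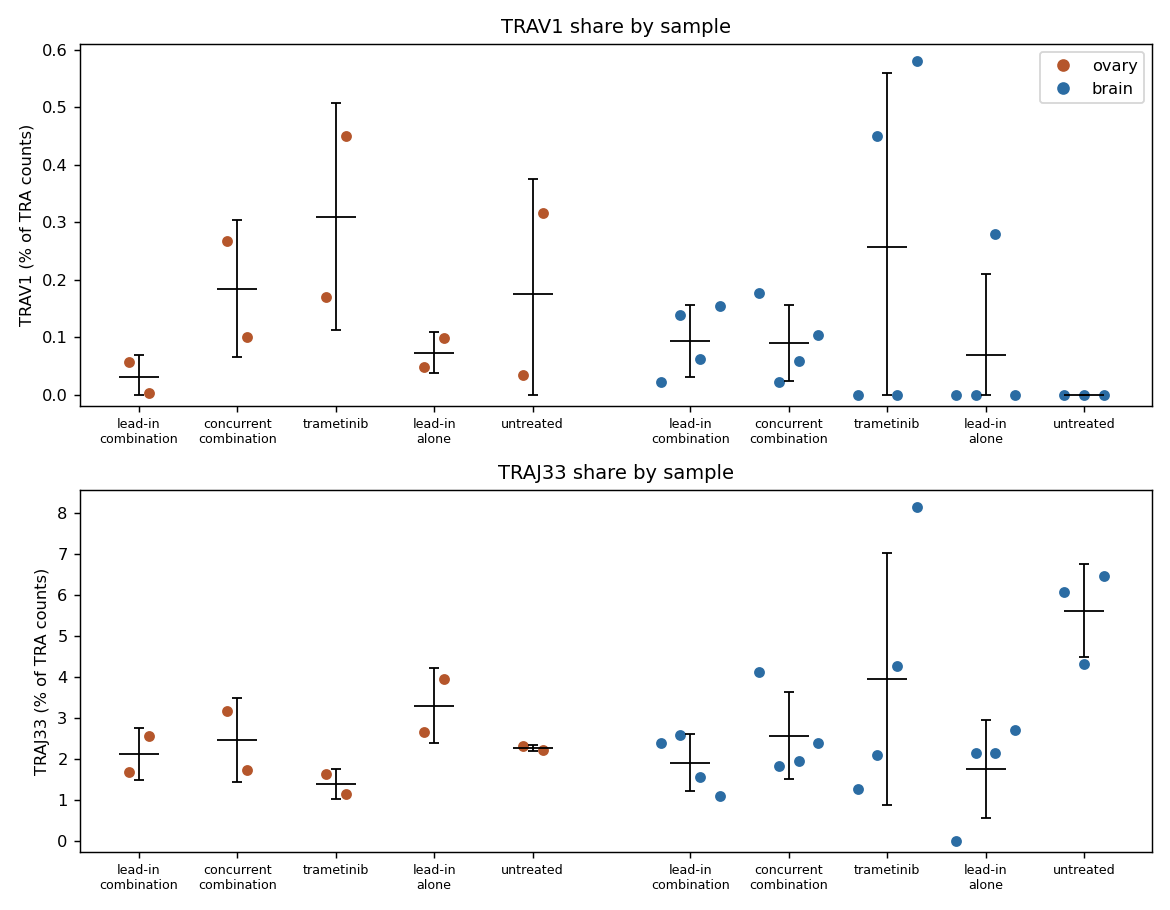
Share of TRAV1 (top) and TRAJ33 (bottom) among TRA counts in percent for each sample (points), ovary at left and brain at right. Black marks give the mean and SD over the samples of each treatment, with each part of a number as a sample. Error bars are cut at 0. TRAV1 was at 0 in all 3 untreated brain samples, and TRAJ33 was highest on average in those samples, at 5.61%.

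No difference in TRAV1 passed the adjusted threshold. Over the 5 numbers of both organs its share was 0.155% ± 0.109 in the ovary and 0.0811% ± 0.0925 in the brain (SD, n = 5 each), a difference of 0.0740 percentage points (exact permutation test, two-sided, p = 0.294 and 0.776 after adjustment for 111 V names). With edgeR's quasi-likelihood test the log2 difference was 0.92 ± 0.89 (SE, adjusted p = 0.711). That fit called 0 of 111 V names (0%), with 15 at an unadjusted p under 0.05, and DESeq2 called 6.

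Brain treatments were compared over 10 numbers. TRAV1 was 0.113 percentage points higher with trametinib, at 0.148% ± 0.0885 (n = 6) against 0.0350% ± 0.0700 (n = 4) without (exact permutation p = 0.0667, adjusted p = 0.689 over 99 V names). Without the largest TRAV1 clonotype of each sample the difference was -0.00345 points. Trametinib was given in the day 3 samples only, so the effect of day cannot be told apart from it. Within day, the lead-in gave a difference of -0.0157 points (exact permutation p = 0.767) and any anti-PD-L1 one of -0.0644 points (exact permutation p = 0.333). Neither direction was stable: the lead-in difference was 0.0226 points with parts summed, the anti-PD-L1 difference was 0.0255 points without the largest clonotype of each sample, and edgeR fitted both contrasts as positive. The contrast of the lead-in is not separate from that of anti-PD-L1, since on day 0 both set the lead-in alone against untreated samples. By edgeR, adjusted p was between 0.630 and 0.984 for TRAV1 in the 11 brain contrasts, each of which called 0 of 99 V names (0%), with 4 to 7 at an unadjusted p under 0.05 and 1 (anti-PD-L1) or 0 called by DESeq2. No fold is given against untreated samples, which had no TRAV1 count. TRAV1 passed the filter of at least 10 counts in at least 2 libraries only through numbers 11, 12 and 14. All of these were under the lead-in alone or the lead-in combination. The tests of TRAV1 with the lead-in and with anti-PD-L1 are therefore not independent of this filter.

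TRAV1 clonotypes were mostly private, as alpha chain clonotypes were in general. Of 57, 55 (96.5%) were found in 1 number, against 93.3% of TRA clonotypes with neither segment. A single TRAV1 clonotype occurred in both organs (1.75%), against 8.28% of the others. The 2 parts of an ovary number shared 4 of 40 TRAV1 clonotypes (10%), against 14.5% of other TRA clonotypes. These shares are descriptions, with no test.

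TRAV1 joined 20 J segments, 18 in the ovary and 11 in the brain. In the ovary TRAJ33 led with 94 counts, before TRAJ23 with 60, TRAJ21 with 53, TRAJ18 with 24 and TRAJ34 with 19, and these 5 held 75.3% of TRAV1 counts. In the brain the order was TRAJ32 and TRAJ22 with 11 each, TRAJ9 with 9, TRAJ21 with 7 and TRAJ27 with 5, together 72.9%. Single clones set much of this order: the 10 counts of the largest brain clonotype, joined to TRAJ32 with a CDR3 of 17 residues, all came from part 1 of brain number 11.

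**Figure D4:**
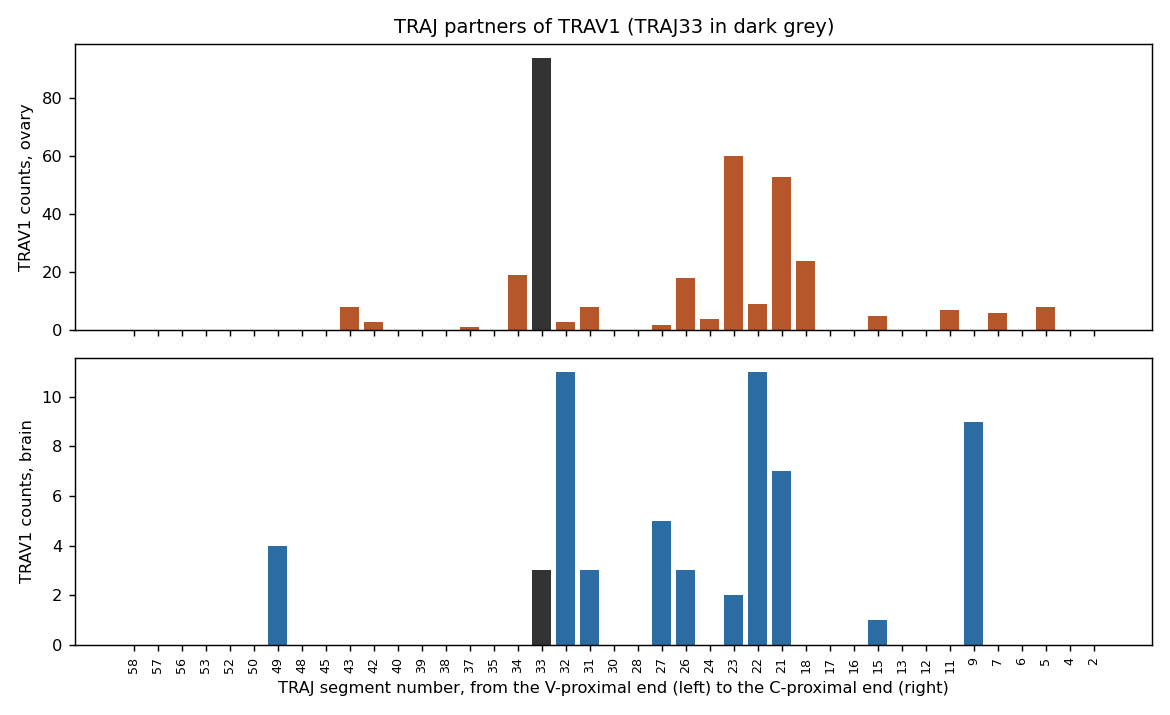
TRAV1 counts by J segment in the ovary (top) and brain (bottom), with J segments in the order of the locus from the V-proximal end (left) to the end near the constant segment (right), and TRAJ33 in dark grey. TRAJ33 holds 94 of 332 ovary counts and 3 of 59 brain counts, and few counts lie to the left of TRAJ34.

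During T cell development, successive rearrangements of the alpha locus tend to join V segments far from the J cluster to J segments near the constant segment, which carry low numbers. Of ovary TRAV1 clonotypes, 4 of 37 (10.8%) used a J segment numbered above 34, against 31.4% of other TRA clonotypes. In the brain it was 1 of 21 (4.76%) against 31.5%. The limit of 34 was chosen after the table had been seen. The mean J number of TRAV1 clonotypes was 26.2 ± 2.2 in the ovary against 29.1 ± 0.26 for other TRA clonotypes (SD, n = 4 numbers with at least 5 TRAV1 clonotypes), lower in 3 of 4 numbers. This difference of -2.94 had an exact two-sided sign-flip p = 0.25 and an adjusted p of 0.5 over 6 tests, where 0.125 was the smallest p possible. In the brain the difference was -1.82 over 3 numbers (exact sign-flip p = 0.5, adjusted p = 0.75, smallest possible 0.25). Neither design could reach the threshold.

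The V end of the CDR3 was nearly fixed in TRAV1 chains. Of 57 clonotypes, 56 began with CAV and 43 (75.4%) with CAVR, where 2.06% of TRA clonotypes with other V segments began with CAVR. The V segment encodes the start of the CDR3, so the V name by which members were chosen bears on this contrast. CAVR began 41 of the 51 TRAV1 clonotypes with other J segments (80.4%) but only 2 of the 6 with TRAJ33, the leading and the brain sequence listed above. The mean CDR3 length differed from that of other TRA clonotypes by -0.252 residues in the ovary (exact sign-flip p = 0.625, adjusted p = 0.75, n = 4) and 0.378 in the brain (exact sign-flip p = 0.75, adjusted p = 0.75, n = 3). The smallest p possible was 0.125 in the ovary and 0.25 in the brain, so neither test could reach the threshold.

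TRAJ33 was more abundant than TRAV1 by more than an order of magnitude, and almost all of it was joined to other V segments. It was carried by 2.45% of summed ovary counts and 2.26% of summed brain counts, rank 17 of 41 J names in each organ. In the RefSeq table Traj33 stands as number 29 of 60 Traj segments along the chromosome. By means over numbers it lay between TRAJ42 (2.48% ± 1.11) and TRAJ57 (2.03% ± 1.07) in the ovary, at 2.31% ± 0.686 (SD, n = 5). In the brain it lay between TRAJ27 (3.39% ± 1.01) and TRAJ15 (3.10% ± 1.82), at 3.20% ± 2.00 (SD, n = 10). It did not differ from these neighbours beyond the spread, but they were picked as nearest in this order, so that is no separate result.

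Ovary samples held 165 to 1369 TRAJ33 counts. Shares were 1.68% and 2.56% in the lead-in combination, 3.18% and 1.73% in the concurrent combination, 1.65% and 1.14% in trametinib, 2.66% and 3.95% in the lead-in alone, and 2.31% and 2.22% in untreated samples. The lead-in alone was highest on average and trametinib lowest. Each is 1 number, so no test was made.

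In brain samples TRAJ33 had 0 to 243 counts. Shares were 2.40%, 2.59%, 1.57% and 1.10% in the lead-in combination, and 4.12%, 1.83%, 1.94% and 2.40% in the concurrent combination. They were 1.27%, 2.10%, 4.26% and 8.14% in trametinib, 0%, 2.14%, 2.15% and 2.71% in the lead-in alone, and 6.06%, 4.32% and 6.46% in untreated samples. The 3 untreated samples lay above all samples of the treatments with anti-PD-L1, and trametinib spanned both ranges. Untreated and trametinib brain samples were also the shallow ones, with 344 to 863 TRA counts, and the part of depth in this order was not tested. Number 10, under the lead-in alone, was as shallow, with 230 and 700 counts, and had 0% and 2.14%.

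Over numbers, TRAJ33 was 2.72 percentage points lower with anti-PD-L1 within day, at 2.08% ± 0.73 (n = 6) against 4.88% ± 2.20 (n = 4) without. This did not pass (exact permutation test, two-sided, p = 0.0556 and 0.412 after adjustment for 53 J names, smallest possible 0.0111). By edgeR's quasi-likelihood test the log2 difference was -1.16 ± 0.41 (SE, adjusted p = 0.199), in a fit that called 2 of 53 J names (3.77%), TRAJ18 and TRAJ23. Without number 12 it was -1.28 with an adjusted p of 0.0439, the one setting of 16 in which TRAJ33 was called, and without number 8 it was -0.59 with an adjusted p of 0.871. With the lead-in the TRAJ33 share was 2.51 points lower within day (exact permutation p = 0.0889, adjusted p = 0.762). Plain means over numbers were 1.83% ± 0.74 (n = 4) with it and 4.11% ± 2.10 (n = 6) without. Differences within day, here and with anti-PD-L1, are weighted over days and so are not those of the plain means. The log2 difference with the lead-in was -1.07 ± 0.42 (adjusted p = 0.341 by edgeR), where 1 of 53 J names was called (1.89%). Trametinib gave -0.979 points (exact permutation p = 0.486) and a log2 difference of -0.41 ± 0.40 (adjusted p = 0.836 by edgeR), where 0 of 53 J names were called (0%), with 4 at an unadjusted p under 0.05 and 0 called by DESeq2.

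Against untreated brain samples the log2 difference of TRAJ33 was -1.58 ± 0.63 for the lead-in combination (adjusted p = 0.223), -1.32 ± 0.63 for the concurrent combination (0.330), -0.69 ± 0.63 for trametinib (0.762) and -1.57 ± 0.64 for the lead-in alone (0.323), all by edgeR. The last contrast called 1 of 53 J names (1.89%), TRAJ23, and the other 3 called 0 of 53 (0%), with 8, 6 and 2 at an unadjusted p under 0.05 in the order given, where DESeq2 called 1, 0 and 0. These 4 comparisons share the same untreated numbers. The lead-in combination, set against the concurrent combination, differed by -0.27 ± 0.60 (adjusted p = 0.865), where the median over the 53 J names was -0.30. With DESeq2 or TMM scaling the sign of this TRAJ33 difference turned. Against trametinib alone it differed by -0.89 ± 0.62 (adjusted p = 0.682), where the median over J names was -0.25. Against the lead-in alone it differed by -0.01 ± 0.61 (adjusted p = 0.984), with a median over J names of -0.21 and again a turned sign under those scalings.

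Between organs TRAJ33 was at 2.31% ± 0.686 in the ovary and 2.68% ± 1.58 in the brain over the 5 shared numbers (exact permutation p = 0.706, adjusted p = 0.987). The log2 difference was -0.21 ± 0.38 (adjusted p = 0.926 by edgeR), where 0 of 53 J names were called (0%), with 3 at an unadjusted p under 0.05 and 2 called by DESeq2. With the number as a replicate block 1 J name was called, and TRAJ33 had an adjusted p of 0.868.

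Large clones set part of the TRAJ33 shares. Their CDR3 sequences, shown because single clones held up to 60.2% of the TRAJ33 counts of a sample, together with the most widely shared one, were the following.
TRAV9N-3-TRAJ33, largest in ovary: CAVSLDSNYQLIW
TRAV3N-3-TRAJ33, largest in brain: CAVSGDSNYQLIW
TRAV12D-2-TRAJ33, in the most numbers: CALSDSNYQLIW
All 3 end in DSNYQLIW, as the leading invariant chain does. The TRAV9N-3 clone had 1297 ovary counts, of which 595 and 699 were in the 2 parts of number 10, under the lead-in alone (43.5% and 60.2% of their TRAJ33 counts). The same clone had 9 of the 15 TRAJ33 counts in part 2 of brain number 10. Without it, ovary number 10 had TRAJ33 shares of 1.52% and 1.61%, and the lead-in alone was no longer highest in the ovary.

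The TRAV3N-3 clone belonged mainly to number 12, under the lead-in combination. It had 277 and 172 counts in the ovary parts of number 12, and 118 and 97 in its brain parts, where it was 55.4% and 39.9% of TRAJ33. Without it brain number 12 had 1.08% and 1.57%. Both large clones were thus found in the ovary and the brain of the same number. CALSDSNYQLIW with TRAV12D-2 was small, with 57 counts, and occurred in 6 numbers. With it, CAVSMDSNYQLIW of TRAV9N-3 (31 counts, 4 ovary numbers) and the leading invariant sequence were the 3 TRAJ33 clonotypes in 4 or more numbers.

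TRAJ33 otherwise behaved like the rest of the alpha chain in sharing. Of its 617 clonotypes, 94.5% were in 1 number, against 93.3% of those with neither segment, and 50 (8.10%) were in both organs, against 8.28%. The parts of a number shared 16.5% of TRAJ33 clonotypes in the ovary, against 14.5% of other TRA clonotypes, and 12.1% in the brain, against 10.97%.

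TRAJ33 was joined to 89 V names. In the ovary the leading ones were TRAV9N-3 (1374 counts), TRAV3N-3 (627), TRAV12N-3 (389), TRAV21/DV12 (304) and TRAV6N-7 (297), with 45.9% of TRAJ33 counts between them. In the brain they were TRAV3N-3 (233), TRAV6-6V6D-6 (83), TRAV14D-1 (72), TRAV8-1V8D-1 (72) and TRAV7D-2 (56), with 42.3%. Mouse alpha V segments are duplicated, and 36 of the 89 names join several segments, with 19.2% of TRAJ33 counts. Of the distinct TRAJ33 CDR3 sequences, 75 stood under more than 1 V name, so counts of near-identical V copies are uncertain. No joined name held TRAV1.

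The J-encoded end of TRAJ33 chains was conserved. SNYQLIW ended 516 of 617 clonotypes (83.6%) and the longer DSNYQLIW ended 306 (49.6%), which held 70.1% of TRAJ33 counts. Another 76 clonotypes, with 45 distinct CDR3 sequences and 923 counts, had this longer end and 12 residues but another V segment than TRAV1. The form of the invariant CDR3 was therefore common among TRAJ33 chains, and among them were 4 of the 5 ovary CDR3 sequences of TRAV1-TRAJ33, all but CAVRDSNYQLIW.

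TRAJ33 clonotypes had short CDR3 regions. Mean length was 12.69 ± 0.22 residues in the ovary against 13.67 ± 0.03 for other TRA clonotypes (SD, n = 5 numbers), shorter by 0.977 residues on average and in 5 of 5 numbers. The exact two-sided sign-flip p was 0.0625, the smallest that 5 numbers allow, and 0.188 after adjustment over 6 tests. In the brain, TRAJ33 had 12.45 ± 0.18 against 13.59 ± 0.07 residues (n = 9 numbers with at least 5 clonotypes). The difference of -1.13 was seen in 9 of 9 numbers, with an exact sign-flip p = 0.00391, the smallest possible there, and an adjusted p of 0.0234. A CDR3 of 12 residues was found in 28.0% of TRAJ33 clonotypes with other V segments, 15.7% of TRAV1 clonotypes with other J segments and 13% of clonotypes with neither, against 6 of 6 with both. The J segment encodes the end of the CDR3, so the J name by which members were chosen bears on this length. The sign in each number was thus not free of that choice. These p-values describe the segment and are no independent support for a trait of these samples.

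**Figure D5:**
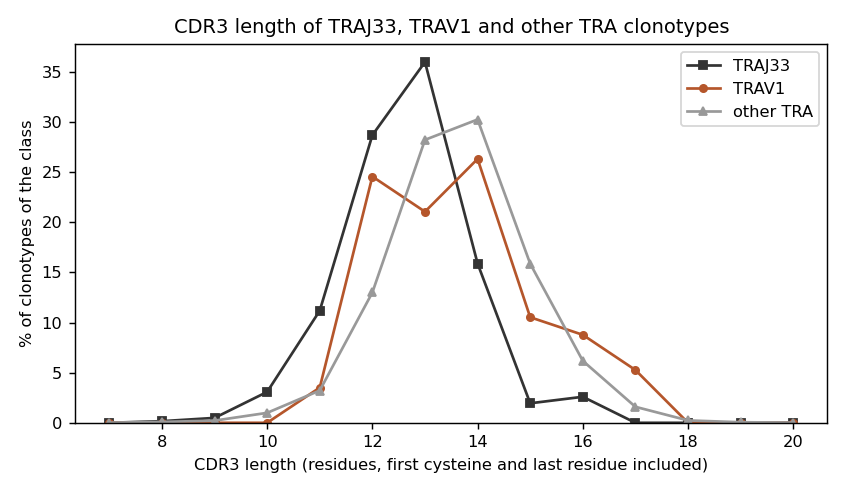
Distribution of CDR3 length in residues (x axis, 7 to 20 shown) as a percentage of the clonotypes of each class, over all samples, for TRAJ33, TRAV1 and the TRA clonotypes with neither. TRAJ33 lies about 1 residue to the left, with a mean of 12.65 against 13.66, and TRAV1 has a mean of 13.63.

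By likeness across the 15 combinations of organ and number, the V names whose shares followed TRAV1 most closely were TRAV8-1V8D-1 (Spearman rho 0.65), TRAV12-3 (0.64) and TRAV13-2V13N-2 (0.56) of 71 compared. For TRAJ33 they were TRAJ34 (0.59), TRAJ56 (0.51) and TRAJ30 (0.36) of 39 compared. These values describe the samples only, since shares sum to the whole and the organs differ in depth.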

How the data were processed

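Per the labels' protocols, T cell receptor libraries were made from RNA with a QIAGEN QIAseq kit. The authors deposited whole-number counts per combination of chain, V, J and CDR3, without normalization. The caller, and if counts are reads or molecules, is not given in the sources used here. Per the submitters' processing notes the build was GRCh38, a human one, so coordinates are left out. Left out were 43 TRA combinations (46 counts) with an unresolved residue. TRBV1 is another gene and was not counted.

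Members and lists were chosen with earlier results of these data known. Named are both segments and their pair in every sample, pair clonotypes with at least 2 counts, the 5 leading partners and the largest clonotype per organ, and the 3 names most alike. J names called, the most shared clonotypes, and TRAV11 with TRAJ18 as the second marker chain, are named too.

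Counts were summed over the parts of a number and tested with edgeR 4.0.16 in R 4.3.3 (quasi-likelihood, offset by log chain total, at least 10 counts in at least 2 libraries, V and J names of both chains), with DESeq2 1.42.0 as an alternative. Standard errors are the log2 difference over the root of F. Shares were averaged over parts and compared by exact permutation over numbers (Python 3.11.15, scipy 1.17.1, pandas 2.3.3, numpy 2.4.6). Figures used matplotlib 3.10.9. P-values were adjusted by Benjamini-Hochberg at 0.05, over all names of a table. Tested on simulated counts of the organ comparison (113 segments), the fit recovered 100% of 200 changes of 4-fold, with 0.55 false calls per run. The changed segments were drawn only from V names with larger shares than TRAV1. This recovery therefore does not show what the fit could detect for TRAV1, for the pair or for J names. No pair of sample columns was identical.

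Ovary and brain samples of the same number were checked for pairing. Deviations from the organ means correlated at 0.224 to 0.825 over 111 V names and 0.323 to 0.842 over 53 J names for the 5 numbers. The main organ tests did not use pairing by number, which entered only as an alternative (replicate block). This pairing is not clear-cut, since other pairs of numbers reached 0.502 and 0.486, and the ovary of 3 of 5 numbers (V) and 4 of 5 (J) correlated best with its own brain number. Over TRA V names alone the lowest same-number value was 0.0981, other pairs reached 0.742, and 2 of 5 numbers correlated best with their own. Over TRA J names alone same-number values ran from 0.498 to 0.910, other pairs reached 0.484, and 5 of 5 numbers correlated best with their own. Segments are not independent replicates.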

Additional observations from a re-analysis of the deposited data

Results flagged for a closer look

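TRAV1 was at 0.280% of TRA counts in part 1 of brain number 11 under the lead-in alone, far from the other 3 samples of that treatment, which had none. These 19 counts fell on 5 clonotypes, of which 1 joined to TRAJ32 held 10, and the sample was the deepest of its treatment with 6782 TRA counts. The 3 others had 230, 700 and 1292 TRA counts, which allow up to 1.30%, 0.429% and 0.232%. Of 12 groups examined this was the only one with a sample so far out. The 3 others were tied at 0, so no chance level can be given for this distance.

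The TRAJ33 share of the lead-in alone lay 1.04 percentage points above that of untreated samples in the ovary and differed from it by -3.86 points in the brain. In the ovary both parts of the lead-in alone were above both untreated samples, and in the brain all 4 were below all 3 untreated samples. The difference between the organs was not tested. With the largest TRAJ33 clonotype of each sample left out, the means were 1.56% against 1.73% in the ovary and 1.14% against 4.35% in the brain, lead-in alone first.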

How the results depend on the processing

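Depth set the main limit. TRAV1 had 59 counts in all brain samples and the invariant chain 3, so single clones moved their shares, and untreated brain samples, with 1368 TRA counts, allow a TRAV1 share of up to 0.219% at their count of 0. Counting joined names that hold TRAV1 gave no other value, since there were none. A minimum of 10 TRAV1 clonotypes left only numbers 10 and 13 in the ovary and none in the brain. Over those ovary numbers, TRAV1 differed from other TRA clonotypes by -1.48 in mean J number and by -0.804 residues in mean CDR3 length. So few numbers could not reach the threshold. Where leaving out a number left a treatment with a single library, its spread was taken to be that of the other treatments.

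Under the alternatives, 294 values of the main comparisons were counted as unchanged, 13 turned sign and 1 became a call. Unchanged as a rule meant the same direction and side of the threshold. For TRAV1 by edgeR with the lead-in, anti-PD-L1 or trametinib, and for the pair between organs, only the side of the threshold was followed. For the pair's share of TRA it meant a value inside the main interval. The edgeR sign of TRAV1 with anti-PD-L1 and with the lead-in turned in some settings. TRAJ33 with anti-PD-L1 was called without number 12, at -1.28 (adjusted p = 0.0439), and ran from -1.49 to -0.59 with a number left out, the last without number 8. The TRAV1 share with the lead-in, -0.0157 points, turned to 0.0708 by clonotypes, to 0.0226 with parts summed and to 0.0368 without the largest clonotype (exact permutation p = 0.0333, adjusted p = 0.471), and ran from -0.0533 to 0.00951 with a number left out (above 0 without number 8, at 0.00936, or number 12). Without the largest clonotype, the TRAV1 difference was 0.0255 with anti-PD-L1 and -0.00345 with trametinib. With the pair left out, the TRAV1 length difference was -0.271 in the brain and 0.0558 in the ovary. With a number left out it ran from -0.502 to 0.0209 in the ovary and from -0.271 to 0.928 in the brain. Between organs TRAJ33 ran from -0.48 to 0.14 on the log2 scale and from -1.03 to 0.263 points, with the highest value of each without number 3. The ratio of the pooled ovary share of the invariant chain to the brain limit, 3.24, ran from 1.34 (without number 12) to 3.73 with a number left out. It was 1.64 without number 13, an alternative chosen after seeing the data. The cause of these changes was not tested.

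For TRAJ33 in the brain, the lead-in combination minus the concurrent combination was 0.18 with DESeq2 and 0.21 with TMM factors, and ran from -0.75 to 0.10 with a number left out. Minus the lead-in alone it was 0.43 and 0.50, and ran from -0.50 to 0.34, with 0.27 without number 11. Minus trametinib it ran from -1.54 to 0.25, and the concurrent combination minus trametinib from -1.28 to 0.51. TRAV1 in the lead-in combination minus the lead-in alone ran from -1.37 to 5.24, the last without number 11, which held all TRAV1 counts of the lead-in alone. Over all alternatives the fits called 0 to 3 J names, 0 to 6 V names and 0 to 2 pairs in a comparison.

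With the number as a replicate block, the organ differences were 0.67 for TRAV1 (adjusted p = 0.785) and -0.16 for TRAJ33 (adjusted p = 0.868) on the log2 scale, and the pair had an adjusted p of 0.989. The block changed no call of a member.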
